A study of Mus musculus with 12 samples.

Results

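The 4 myogenic basic helix-loop-helix (bHLH) factors, Myog, Myod1, Myf5 and Myf6, and 3 MEF2 factors, Mef2a, Mef2c and Mef2d, were followed across 4 treatment groups of differentiating muscle cells. These 7 genes were taken by symbol from 19938 genes on the array, each through the transcript cluster (the set of probes that gives 1 value per gene model) annotated to that symbol alone. Mef2d had 2 such clusters, of which the brighter was used, and each of the other 6 genes had 1, Myog included. Mef2b was not used here because its cluster carries several symbols.

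The cells were C2i-Myog, a stable line made from the mouse myoblast line C2C12 that expresses exogenous Flag-tagged mouse Myog when doxycycline is added. All 4 groups were the same line and were grown in medium with 10% fetal calf serum, then differentiated for 48 h in 1% horse serum, supplemented with transferrin (10 µg/mL) and insulin (10 µg/mL). From the start of differentiation the Dox group had doxycycline (0.2 µg/mL), the SB group had 10 µM of SB203580, which inhibits p38 alpha and beta, the SB+Dox group had both and the control group had neither, with 3 arrays for each. No group used here received doxycycline in cells without the transgene, so the drug and the exogenous Myog were measured together, and whether the line is 1 clone is not stated in the labels. Nothing in the labels tells separate cultures from repeat arrays, so p-values measure the spread between these arrays, which may be technical. Each array reports the average of all cells on the dish, so fewer expressing cells and less RNA per cell cannot be told apart.

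Myogenic bHLH factors bind DNA as dimers with E proteins at the E box, a short motif found at many muscle genes. Myf5 and Myod1 set the muscle lineage in myoblasts, Myog carries them into terminal differentiation, and Myf6 (also called MRF4) is known mainly from late differentiation and adult muscle. MEF2 proteins are MADS-box factors that cannot start the muscle programme alone but act with the bHLH factors at shared promoters, the Myog promoter among them. The p38 kinases phosphorylate MEF2 proteins, E proteins and a chromatin remodelling subunit recruited by MyoD. The comparisons therefore ask how the messages of these factors stood when p38 was inhibited, and whether supplying Myog altered them.

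Myog and Myf5, which moved in opposite directions under the inhibitor, are shown here by the 300 bases around their starts. The sequences come from RefSeq on GRCm38.p6, run from 250 bases before to 50 bases after the start, and are written 5′ to 3′ on the gene's strand. The Myog window lies at chr1:134289754-134290053 on the plus strand and the Myf5 window at chr10:107486085-107486384 on the minus strand. Capitals mark E boxes (CANNTG, where N is any base) and the core of the MEF2 site (TA, then 4 bases that are each A or T, then TA), both of which read as the same motif on either strand.
Myog: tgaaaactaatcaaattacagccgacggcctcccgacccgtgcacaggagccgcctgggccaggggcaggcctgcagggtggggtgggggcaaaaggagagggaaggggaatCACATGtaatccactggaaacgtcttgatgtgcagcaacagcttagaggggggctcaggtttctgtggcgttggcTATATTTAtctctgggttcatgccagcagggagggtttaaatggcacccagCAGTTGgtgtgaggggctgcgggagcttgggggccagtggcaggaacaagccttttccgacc
Myf5: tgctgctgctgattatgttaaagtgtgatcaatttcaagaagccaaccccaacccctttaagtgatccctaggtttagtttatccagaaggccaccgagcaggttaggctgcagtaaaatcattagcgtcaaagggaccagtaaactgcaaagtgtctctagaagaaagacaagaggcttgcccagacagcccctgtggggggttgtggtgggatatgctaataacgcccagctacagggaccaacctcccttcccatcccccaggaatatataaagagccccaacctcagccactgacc
The Myog window held 2 E boxes, CACATG at -138 to -133 and CAGTTG at -12 to -7, counting from the first base of the gene as 1, and 1 MEF2 core, TATATTTA at -63 to -56. The Myf5 window held 0 of either and 1 TATAAA, searched on the gene's strand, at 21 to 26 after the start. Over 32851 windows of the same length, 72.3% held an E box, 9.32% a MEF2 core and 8.32% a TATAAA. In all, 5 of the 7 genes had an entry, with 7 windows between them (3 of Mef2c), and Myod1 and Myf6 had none. E boxes and MEF2 cores were not particular to Myog among them. Mef2c window 1 held 2 E boxes and 1 MEF2 core, Mef2c window 3 held 1 E box and the Mef2a window 1 MEF2 core. The Mef2d window and Mef2c window 2 held 0 of either. The E boxes CAGCTG and CAGGTG, which are among the CANNTG matches, were found in 0 of these 7 windows on either strand, against 16.3% and 20.2% of all windows. The full MEF2 site, which contains the core, was in the Mef2a window alone, at -2 to 8, and in 3.19% of all windows. A match describes the letters and is not evidence of binding.

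Every array gave a log2 signal, a scale on which 1 unit is a 2-fold difference, for 35557 transcript clusters, and array medians lay between 4.86 and 5.06. On the second principal component SB replicate 3 scored -8.47, where the other SB arrays scored 20.26 and 11.74, so results that rest on it are given without it as well. Of 8 genes of skeletal muscle identity, such as the intermediate filament gene Des and the cadherin gene Cdh15, 8 of 8 had a mean above the typical array median (the list also holds Myod1 and Myf5). Their mean level was 9.40 to 9.69 over the control arrays and 9.15 to 9.32 over the SB arrays. Of 8 endothelial, neural, blood and epithelial markers 2 were above that median. Levels depend on the probes, so they are compared between groups and not between genes.

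Under SB203580 the messages of Myog and Myod1 fell and that of Myf5 rose, whether or not doxycycline was present, while Myf6 and the 3 MEF2 genes passed no test (limma, Benjamini-Hochberg adjusted p under 0.05 over 21789 clusters). In SB against control 3 of the 7 genes were called, 2 lower and 1 higher, where 6.38% of all clusters were called, 3.87% lower and 2.51% higher. For SB+Dox against Dox 3 were called, 2 lower and 1 higher, where the background was 10.4%, with 3.43% lower and 6.97% higher. For SB+Dox against control 2 were called, both lower, where it was 5.26%, with 2.42% lower and 2.84% higher. Doxycycline alone lowered 1 of the 7, Myf5, where 5.31% of clusters were called, 3.88% lower and 1.43% higher.

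Adding doxycycline to the inhibitor called 0 of the 7 genes, against a background of 7.11%, with 2.71% lower and 4.4% higher, although 4 had an unadjusted p under 0.05, as did 20.9% of clusters. The interaction is the difference between the doxycycline changes in inhibited and uninhibited cells. It called 0 of the 7, against 0.895% of clusters, 0.17% lower and 0.725% higher, and 2 of the 7 had an unadjusted p under 0.05, as did 11.4% of clusters. Groups did not overlap for 4 of the 7 genes in SB against control (20% of clusters), 2 in SB+Dox against SB (25%), 6 in SB+Dox against Dox (29.1%), 2 in Dox against control (20%) and 2 in SB+Dox against control (23.2%). These comparisons share groups and are not independent of each other.

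Myog, the gene the transgene was built from, measured 9.66, 10.18 and 9.89 on the control arrays and 10.39, 10.30 and 10.40 on the Dox arrays. It measured 6.93, 7.96 and 8.21 on the SB arrays and 8.10, 8.23 and 8.68 on the SB+Dox arrays. The arrays without inhibitor were all higher than the arrays with it, and the SB arrays spread most, with replicate 1 the lowest of the 12. The inhibitor lowered Myog by a factor of 4.63 without doxycycline (-2.21 ± 0.25 SE on the log2 scale, limma adjusted p = 9.39e-05). With doxycycline it lowered Myog by a factor of 4.09 (-2.03 ± 0.25 SE, adjusted p = 8.86e-05). The labels describe SB cells as not expressing Myog. Its mean there was 7.70 ± 0.68 (SD, n = 3), at percentile 86.0 of the tested clusters. Levels depend on the probes, so this rank cannot show whether the message was present.

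Whether doxycycline moved this Myog cluster past the test depended on the fit in inhibited cells. Dox stood 0.46 above control, with a 95% interval of -0.08 to 0.99 (adjusted p = 0.467), although all 3 Dox arrays were above all 3 control arrays. SB+Dox stood 0.64 above SB, with an interval of 0.10 to 1.17 (adjusted p = 0.157), and these groups overlapped. The SB+Dox difference passed when the 6 arrays of these groups were paired by replicate number (adjusted p = 0.0117). That fit was chosen after the data were seen. Leaving out SB replicate 3 also made the difference pass (adjusted p = 0.0311). In 22 of 24 alternatives the difference was not called, with adjusted p up to 0.549. Among these was the replicate block over all arrays (adjusted p = 0.0676). Across the 24 alternatives the difference ran from 0.25 to 0.89. Where the probes lie relative to the transgene is not stated in the labels, so this cluster may read the endogenous message, the transgene or both, and does not check the induction. The order of Myog levels was Dox, control, SB+Dox and SB, and of its neighbours only control and SB+Dox differed past the test (2.98-fold, log2 change -1.58, adjusted p = 0.00162). From SB to SB+Dox, Myog recovered 28.8% of the distance from SB to control, a share that ran from 13.7% without SB replicate 1 to 36.1% without SB replicate 3.

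**Figure D1:**
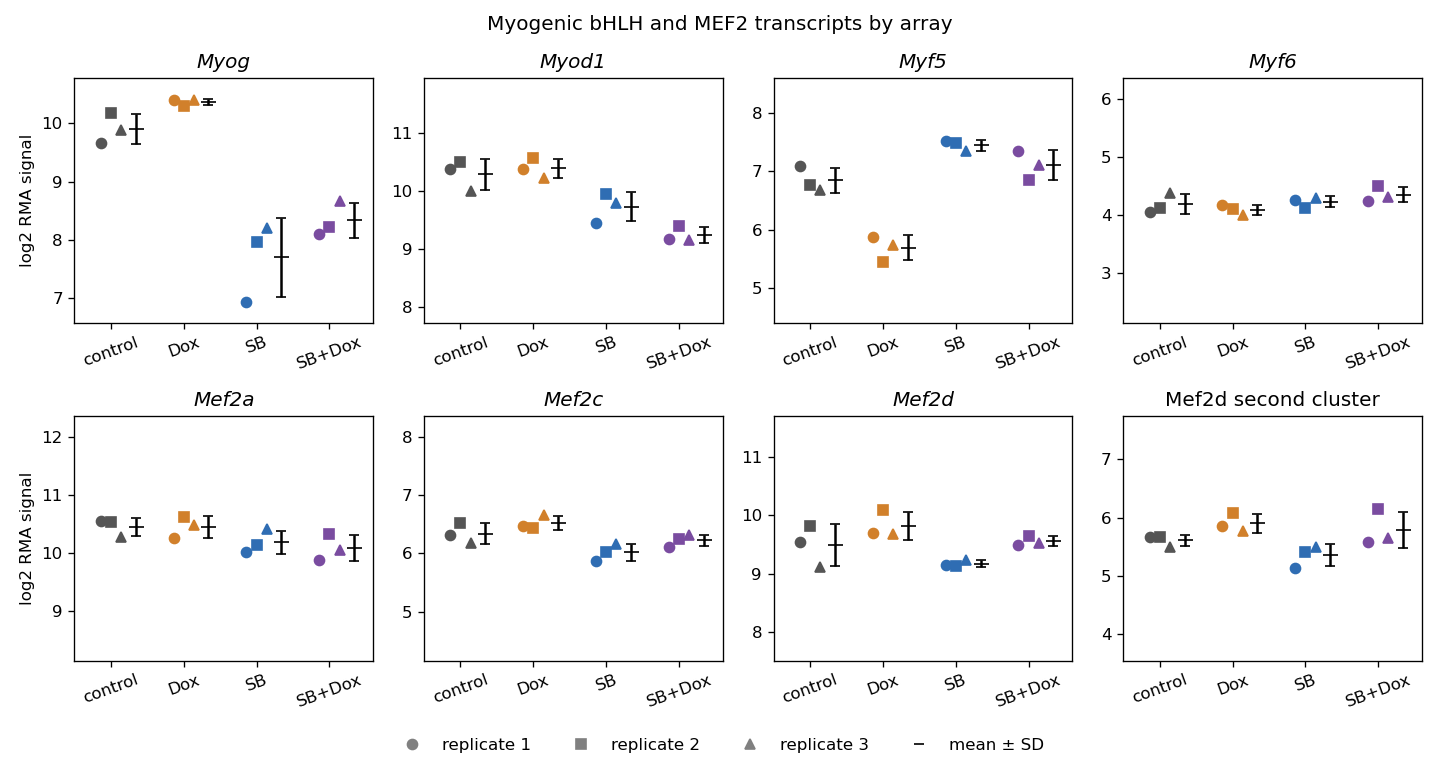
Log2 RMA signal (vertical axes, each spanning the same number of units) of the 7 genes and the second Mef2d cluster by group, with 1 point per array, the shape giving the replicate number, and the mean ± SD of 3 arrays in black. Myog is lowest in SB at 6.93 to 8.21, Myf5 is lowest in Dox at 5.45 to 5.87, and Myf6 stays between 4.0 and 4.50 on all 12 arrays.

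Myod1, the determination factor that binds the Myog promoter early in differentiation, showed another order. It measured 10.37, 10.50 and 9.99 in control, 10.38, 10.56 and 10.23 in Dox, 9.45, 9.95 and 9.79 in SB, and 9.18, 9.40 and 9.15 in SB+Dox. The lowest group was the one that received both agents, and its 3 arrays lay below all of the other 9. Against Dox, Myod1 in SB+Dox was reduced 2.21-fold (-1.14 ± 0.15 SE on the log2 scale, adjusted p = 1.38e-04), and against control 2.06-fold (-1.04 ± 0.15 SE, adjusted p = 6.93e-04). In SB against control the reduction was 1.47-fold (-0.56 ± 0.15 SE, adjusted p = 0.0356). That last call was lost without control replicate 1 or 2, Dox replicate 1 or SB replicate 1, with adjusted p up to 0.165, with the compared arrays alone (0.0855) and when every cluster was tested (0.111). The doxycycline change of Myod1 was 0.10 without the inhibitor and -0.49 with it, and the difference between them, -0.59 (95% interval -1.04 to -0.14), did not pass over all genes (adjusted p = 0.267).

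Myf5, the other determination factor, marks proliferating and undifferentiated myoblasts and moved against Myog. It measured 7.09, 6.77 and 6.68 in control, 5.87, 5.45 and 5.74 in Dox, 7.52, 7.48 and 7.34 in SB, and 7.36, 6.85 and 7.11 in SB+Dox. The Dox arrays were below the other 9, and the SB arrays were above all control and Dox arrays. Doxycycline alone lowered Myf5 by 2.23-fold (-1.16 ± 0.15 SE on the log2 scale, adjusted p = 2.35e-04). With the inhibitor present the change was -0.34 (95% interval -0.65 to -0.03, adjusted p = 0.191), and SB+Dox and control overlapped (0.26, adjusted p = 0.433).

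The inhibitor raised Myf5 with or without doxycycline. The increase was 2.68-fold with doxycycline (1.42 ± 0.15 SE on the log2 scale, adjusted p = 1.70e-05) and 1.52-fold without it (0.60 ± 0.15 SE, adjusted p = 0.021). The smaller of these calls was lost without control replicate 2 or 3 or SB replicate 1 or 2, with adjusted p up to 0.0882, and when every cluster was tested (0.0752). The doxycycline change with the inhibitor exceeded that without it by 0.82 (95% interval 0.38 to 1.26), which did not pass (adjusted p = 0.0897). It passed when replicate numbers were blocked (adjusted p = 0.0158), with each array centred on its median (0.0426) and with array weights (0.0362).

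Markers of other cell states moved with Myf5 in part, and their part in its result was not tested. Of 12 genes known from quiescent and reserve muscle cells 5 fell and 0 rose in Dox against control, where 3.88% of all clusters fell. Their mean level was 5.67 to 5.89 over the Dox arrays, 6.14 to 6.25 over control, 6.23 to 6.34 over SB and 5.97 to 6.06 over SB+Dox. Cd34, a surface sialomucin of satellite cells, fell by 1.05 on the log2 scale in Dox (adjusted p = 0.00141) and the heparan sulphate proteoglycan gene Sdc4 by 0.57 (adjusted p = 0.00218). Under the inhibitor Cd34 rose 2.72-fold without doxycycline (adjusted p = 1.31e-04) and 4.03-fold with it (adjusted p = 2.49e-06).

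Other reserve cell genes did not follow Cd34. Vcam1, an adhesion molecule gene, fell from control to SB (-0.46, adjusted p = 0.0357) and lost this call in 6 of 23 alternatives. Thus 1 of the 12 rose and 1 fell in SB against control, where 2.51% and 3.87% of all clusters did. Doxycycline in inhibited cells lowered the chemokine receptor gene Cxcr4 (-1.27, adjusted p = 6.50e-04) and Notch3 (-0.70, adjusted p = 0.0068). The syndecan gene Sdc3 was higher in SB+Dox than Dox (0.75, adjusted p = 0.00804, lost without SB+Dox replicate 2). In SB+Dox against Dox 2 of the 12 rose, Cd34 and Sdc3, and 1 fell, where 6.97% and 3.43% of all clusters did. The list median there was -0.03, and -0.03 over all clusters. Pax7, the defining factor of satellite cells, had means of 5.38 (control), 5.37 (Dox), 5.29 (SB) and 5.26 (SB+Dox).

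Of 8 fibroblast markers 3 fell in Dox against control (3.88% of clusters), and the list mean was 4.87 to 5.10 over Dox, 5.65 to 6.16 over control, 5.66 to 5.79 over SB and 5.32 to 5.38 over SB+Dox. Dcn, the matrix proteoglycan decorin, rose under the inhibitor, 2.95-fold without doxycycline (adjusted p = 0.0118, lost without control replicate 1 or 2 and when every cluster was tested) and 8.91-fold with it (adjusted p = 2.79e-05). The collagen gene Col1a1 fell 5.6-fold in SB against control (adjusted p = 6.10e-05). Col3a1 fell in SB+Dox against SB (-0.96, adjusted p = 0.001) and was higher there than in Dox (0.55, adjusted p = 0.0208, lost in 4 of 23 alternatives).

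Among the other marker lists, the adipocyte gene Lpl, lipoprotein lipase, was higher under the inhibitor. The difference was 0.99 without doxycycline (adjusted p = 0.002) and 1.13 with it (adjusted p = 3.53e-04). It was the 1 gene called of 7 in its list in each comparison, where 2.51% and 6.97% of all clusters rose. The list medians were 0.0016 and -0.011. The Lpl means in control, 4.27, and Dox, 3.82, were below every array median. The cartilage factor gene Sox9 was higher in SB+Dox than in SB (0.53, adjusted p = 0.0125, lost without SB+Dox replicate 3). It was the 1 gene called of 6 bone and cartilage markers, whose median change was -0.14, where 4.4% of all clusters rose. Of the 8 muscle identity genes 1 rose and 4 fell in SB against control, where 2.51% and 3.87% of clusters did. Of the muscle identity genes, the adhesion molecule gene Ncam1 fell in SB against control (-1.10, adjusted p = 2.21e-04) and the integrin gene Itga7 likewise (-0.59, adjusted p = 0.00536). Both rose from SB to SB+Dox, by 0.88 (adjusted p = 0.00162) and 0.56 (adjusted p = 0.0071). Against Dox, SB+Dox was lower for Ncam1 (-0.86, adjusted p = 8.22e-04) and Cdh15 (-0.47, adjusted p = 0.0222, lost in 6 of 23 alternatives).

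Myf6 lies next to Myf5 on chromosome 10, with 0 protein-coding genes between them in RefSeq. It measured 4.06, 4.13 and 4.38 in control, 4.17, 4.10 and 4.0 in Dox, 4.27, 4.13 and 4.30 in SB, and 4.24, 4.50 and 4.31 in SB+Dox. All 12 values were below the array medians and none was shown to be above background. Its largest difference, 0.26 between SB+Dox and Dox (95% interval 0.03 to 0.49), did not pass (adjusted p = 0.162). Its neighbour Myf5 spanned 5.45 to 7.52.

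The 3 MEF2 genes passed the test in 0 of the 6 comparisons. Mef2c, the MEF2 gene most closely tied to skeletal muscle differentiation, measured 6.31, 6.53 and 6.18 in control, 6.46, 6.43 and 6.65 in Dox, 5.86, 6.03 and 6.16 in SB, and 6.11, 6.24 and 6.31 in SB+Dox. All 3 SB arrays were below all control and all Dox arrays, and overlapped the SB+Dox arrays. SB stood 0.32 below control (log2 change -0.32, 95% interval -0.57 to -0.08, adjusted p = 0.125), and this passed with array weights alone (adjusted p = 0.0279).

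Mef2d, which is expressed in myoblasts before differentiation, measured 9.55, 9.81 and 9.11 in control, 9.70, 10.10 and 9.68 in Dox, 9.14, 9.13 and 9.24 in SB, and 9.49, 9.66 and 9.52 in SB+Dox. All 3 SB+Dox arrays were above all 3 SB arrays, and control replicate 3 lay as low as the SB arrays. The difference from control was -0.32 in SB (adjusted p = 0.305) and 0.34 in Dox (adjusted p = 0.324). The SB difference passed without control replicate 3 (-0.51, adjusted p = 0.0448) and with array weights (-0.43, adjusted p = 0.0412). The second Mef2d cluster had the same signs in each of the 6 comparisons, with -0.26 in SB against control and 0.44 in SB+Dox against SB.

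Mef2a, a widely expressed MEF2 gene, measured 10.55, 10.53 and 10.27 in control, 10.25, 10.62 and 10.49 in Dox, 10.01, 10.14 and 10.41 in SB, and 9.89, 10.33 and 10.05 in SB+Dox. The groups overlapped in every pair. Its largest differences were -0.36 in SB+Dox against Dox (95% interval -0.66 to -0.06, adjusted p = 0.132) and -0.36 against control (adjusted p = 0.196). In the 5 comparisons of 2 groups, the widest reach of an uncalled 95% interval was 1.17, for Myog.

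**Figure D2:**
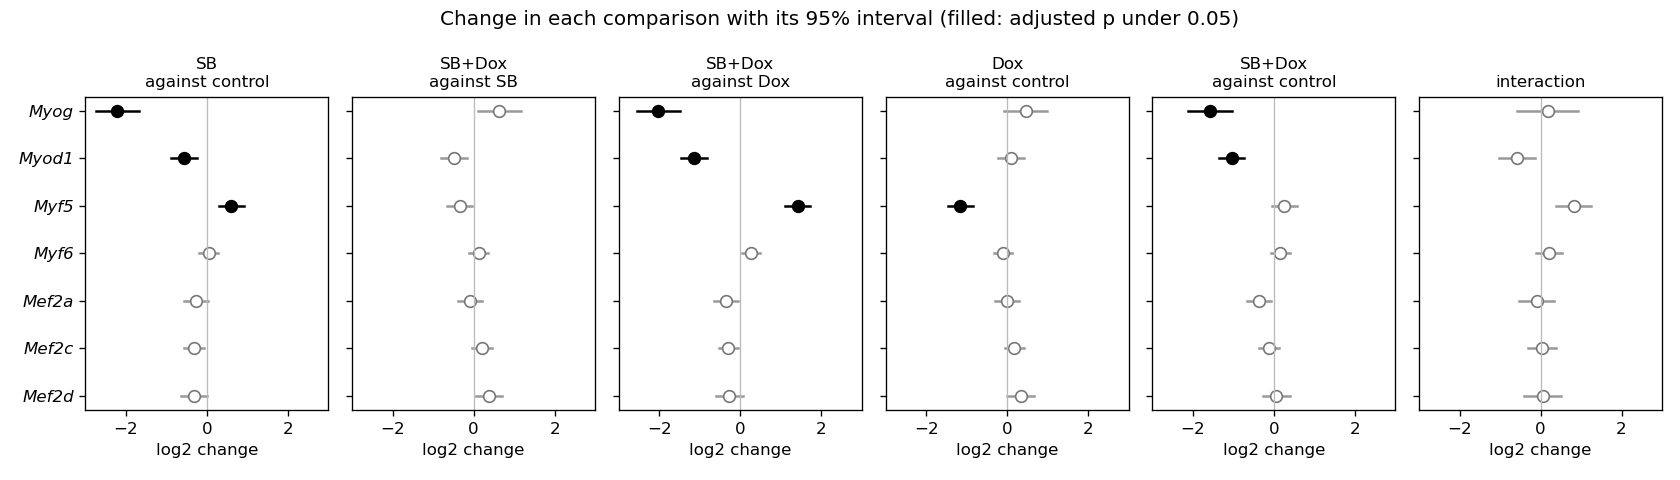
Log2 change of each of the 7 genes in the 6 comparisons (horizontal axes, log2 units), with the 95% interval from limma as a line and filled points for an adjusted p under 0.05. Myog and Myod1 are filled below 0 in the 3 comparisons of an inhibited group with an uninhibited one, and Myf5 is filled above 0 in SB against control and SB+Dox against Dox and below 0 in Dox against control.

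SB+Dox against SB depended on how replicates were treated. Arrays of SB and SB+Dox with the same number deviated together from their group means, with correlations over clusters of 0.44, 0.19 and 0.49. The labels do not say that a number marks a shared culture. Pairing by number was therefore inferred from these same arrays, and the paired fits below cannot check it. SB+Dox exceeded the same-numbered SB array by 1.17, 0.26 and 0.47 for Myog, and fell short of it for Myod1, with differences of -0.27, -0.54 and -0.64. For Mef2d the differences were 0.35, 0.53 and 0.28 and for Mef2c 0.25, 0.21 and 0.15. The direction was the same in all 3 pairs for these 4 genes and for Myf5 (-0.17, -0.63 and -0.23). With the number as a block over 12 arrays, 1 gene passed, Myod1 (-0.49, adjusted p = 0.0174), where 9.05% of clusters passed. With the block over the 6 arrays of these groups, a fit chosen after the data were seen, 3 passed, Myog (adjusted p = 0.0117) and Mef2d (adjusted p = 0.0185) higher and Myod1 (adjusted p = 0.00677) lower, where 12.6% passed. Without SB replicate 3 and without a block, Myog passed (0.89, adjusted p = 0.0311), where 11.6% of clusters passed. Leaving out SB replicate 1 instead, the array with the lowest Myog, gave a Myog difference of 0.25, which did not pass.

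**Figure D3:**
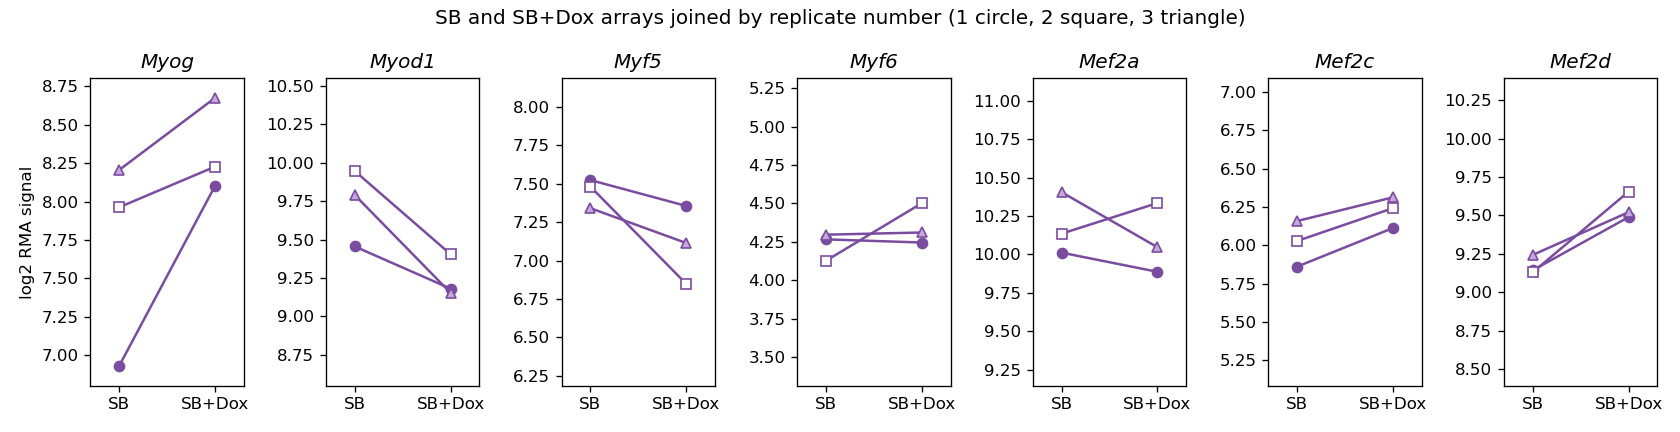
Log2 RMA signal (vertical axes, each spanning the same number of units) of the 7 genes on the SB and SB+Dox arrays, with a line joining arrays of the same replicate number. Lines for Myog, Mef2c and Mef2d go up, by 0.26 to 1.17 for Myog, and lines for Myod1 and Myf5 go down in all 3 pairs.

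Among the partners of these factors, the E proteins, which dimerise with every myogenic bHLH factor, had 3 of 3 genes measured. Tcf4 was lower in SB+Dox than in SB (log2 change -0.42, adjusted p = 0.0483) and exceeded its Dox level there (0.44, adjusted p = 0.0308). Its means were 8.30 ± 0.09 (control), 7.59 ± 0.22 (Dox), 8.45 ± 0.20 (SB) and 8.02 ± 0.04 (SB+Dox; SD, n = 3), and it fell in Dox against control (-0.72, adjusted p = 0.0021), so that Dox was its lowest group, as for Myf5. The first of these calls was lost under the block over 12 arrays and in 9 of the 12 fits without 1 array, and the second in 5 of them. Tcf3 and Tcf12 passed in 0 of the 6 comparisons.

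Of 14 measured coactivators 2 rose and 0 fell in SB against control, where 2.51% of all clusters rose and 3.87% fell. These were the acetyltransferase gene Kat2b (PCAF), which acetylates MyoD (0.35, adjusted p = 0.0486), and Meis1, a homeodomain partner at MyoD-bound genes (0.46, adjusted p = 0.0113). The Kat2b call was lost in 16 of 23 alternatives, among them all 12 fits without 1 array. With doxycycline in both groups the same pair rose and 0 fell, where 6.97% of clusters rose, Kat2b 1.92-fold (adjusted p = 2.26e-05) and Meis1 1.58-fold (adjusted p = 4.27e-04).

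Of 11 corepressors 2 rose and 0 fell in SB+Dox against Dox, where 6.97% of all clusters rose and 3.43% fell. These were the class II histone deacetylase gene Hdac7 (1.64-fold, adjusted p = 1.04e-04) and the histone methyltransferase gene Ezh2 (1.24-fold, adjusted p = 0.0306). The Ezh2 call was lost in 8 of 23 alternatives, among them quantile normalisation and the fits without any 1 of the Dox or SB+Dox arrays. Hdac7 was the 1 corepressor that rose from control to SB (0.36, adjusted p = 0.0234), where 2.51% of all clusters rose. It lost this call in 7 of 23 alternatives. From SB to SB+Dox 0 rose and 3 fell, where 2.71% of clusters fell, among them the deacetylase gene Hdac1 (1.47-fold, adjusted p = 0.0037) and Ezh2 (1.38-fold, adjusted p = 0.0042). The median change of the corepressors was 0.20 in SB against control and -0.20 in SB+Dox against SB, where the medians of all clusters were 0.03 and -0.04.

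Of 18 antagonists of the bHLH factors 4 fell and 0 rose in SB against control (3.87% and 2.51% of all clusters), with a median of -0.01. Bhlhe40, a repressor of the same family, had means of 8.64 ± 0.18 (control), 9.56 ± 0.09 (Dox), 6.79 ± 0.22 (SB) and 7.81 ± 0.24 (SB+Dox; SD, n = 3), the same order as Myog, and fell 3.62-fold from control to SB (adjusted p = 4.01e-06). Id2, whose protein sequesters E proteins, fell 2-fold from control to SB (adjusted p = 0.00434). In SB+Dox against Dox 2 rose and 5 fell (6.97% and 3.43% of clusters). Bhlhe40 was 3.37-fold lower there (adjusted p = 1.55e-06) and the zinc finger repressor gene Snai2 1.91-fold higher (adjusted p = 3.68e-04). From SB to SB+Dox 1 rose and 0 fell (4.4% and 2.71% of clusters), Bhlhe40 by 2.02-fold (adjusted p = 6.61e-04).

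Of 20 upstream factors 2 rose and 3 fell in SB against control (2.51% and 3.87% of clusters). Tead4, which binds muscle promoters with YAP and TAZ, fell 2.62-fold there (adjusted p = 2.00e-04) and was reduced 2.4-fold in SB+Dox against Dox (adjusted p = 2.17e-04). The zinc finger factor gene Klf5 fell 2.25-fold from control to SB (adjusted p = 1.64e-04). Both rose from SB to SB+Dox, Klf5 1.66-fold (adjusted p = 0.00527) and Tead4 1.61-fold (adjusted p = 0.0243), the latter call lost in 5 of 24 alternatives. Eya1, a cofactor of homeobox proteins that act on Myog and Myf5, was 2.48-fold higher in SB+Dox against Dox (adjusted p = 1.88e-05).

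Among 16 kinases of MEF2, E proteins or class II deacetylases, 1 rose and 3 fell in SB against control (2.51% and 3.87% of clusters). The 1 that rose had the largest change of the list, Map2k6, which encodes an activator of p38, at 4.9-fold (adjusted p = 2.34e-07), and it rose 6.78-fold in SB+Dox against Dox (adjusted p = 1.46e-08). The salt-inducible kinase gene Sik1 fell 1.85-fold in SB against control (adjusted p = 2.75e-04). From SB to SB+Dox 2 rose (4.4% of clusters), Mapk12, the gamma form of p38 (1.37-fold, adjusted p = 0.0331), and the calmodulin kinase gene Camk2d (1.35-fold, adjusted p = 0.0209), and each call was lost in 6 of 24 alternatives.

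Of 35 measured muscle genes known as targets of the bHLH and MEF2 factors, 0 rose and 20 fell in SB against control, where 2.51% and 3.87% of all clusters did, with a median of -0.74 against 0.03 over all clusters. From SB to SB+Dox 22 rose and 0 fell (4.4% and 2.71% of clusters), with a median of 0.95 against -0.04. In Dox against control 8 rose and 0 fell (1.43% and 3.88% of clusters), with a median of 0.38 against 0.01. In SB+Dox against Dox 0 rose and 7 fell (6.97% and 3.43% of clusters), with a median of -0.19 against -0.03. The count of 20 dropped to 15 without control replicate 1 or SB replicate 2 and to 12 without SB replicate 1. It was 11 without control replicate 2 or when every cluster was tested, and 14 with the compared arrays alone. It was 21 without SB replicate 3, 22 with array weights and 23 with the replicate block. When 1 array was left out, the count of 22 ran from 17 without SB+Dox replicate 3 to 24 without SB replicate 3. It was 25 with array weights and 27 with the block over the SB and SB+Dox arrays, a fit chosen after the data were seen. With array weights, with that block and without SB+Dox replicate 3, 1 target gene fell. The count of 8 became 4 without control replicate 1, control replicate 3 or Dox replicate 2 and with every cluster tested, and 12 without SB replicate 1, with array weights or with the compared arrays alone. The count of 7 became 4 without Dox replicate 1 or SB+Dox replicate 1 or 2, with median centring and with every cluster tested, and 11 with the compared arrays alone.

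Smooth muscle markers moved the same way in part, and their part in these counts was not tested. Of 8 such genes 0 rose and 3 fell in SB against control, where 2.51% and 3.87% of all clusters did. In SB+Dox against SB 2 rose and 0 fell (4.4% and 2.71% of clusters). Their mean level was 6.97 to 7.15 over control, 6.85 to 7.07 over Dox, 6.28 to 6.49 over SB and 6.63 to 6.78 over SB+Dox. The actin gene Actg2 fell 4.36-fold (adjusted p = 7.21e-06) and the actin-binding protein gene Tagln 3.77-fold (adjusted p = 0.00131) in SB. From SB to SB+Dox Tagln rose 2.79-fold (adjusted p = 0.0071) and Actg2 1.66-fold (adjusted p = 0.0194), the latter call lost without SB replicate 1 or SB+Dox replicate 3 and when every cluster was tested.

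In single target genes, Tnnc1, slow troponin C, had means of 11.22 ± 0.15 (control), 11.66 ± 0.12 (Dox), 9.12 ± 0.58 (SB) and 11.23 ± 0.14 (SB+Dox; SD, n = 3). It fell 4.27-fold from control to SB (adjusted p = 2.80e-05), and its change in SB+Dox against control was 0.01 (adjusted p = 0.992). The Myog cluster was 2.98-fold lower in the same comparison. That cluster may not read the transgene, so the total Myog message in SB+Dox is not known. The calsequestrin gene Casq2 measured 8.07 ± 0.28, 9.16 ± 0.22, 7.26 ± 0.47 and 9.69 ± 0.22 in the same order, and so rose 5.41-fold from SB to SB+Dox (adjusted p = 2.71e-05). Mymx, the fusion peptide myomixer, measured 7.03 ± 0.08, 7.89 ± 0.23, 5.60 ± 0.04 and 5.94 ± 0.12 and fell 3.85-fold from Dox to SB+Dox (adjusted p = 1.17e-07). The embryonic light chain gene Myl4 measured 10.10 ± 0.28, 11.07 ± 0.29, 6.96 ± 0.29 and 9.42 ± 0.28 and fell 3.15-fold from Dox to SB+Dox (adjusted p = 4.54e-05).

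**Figure D4:**
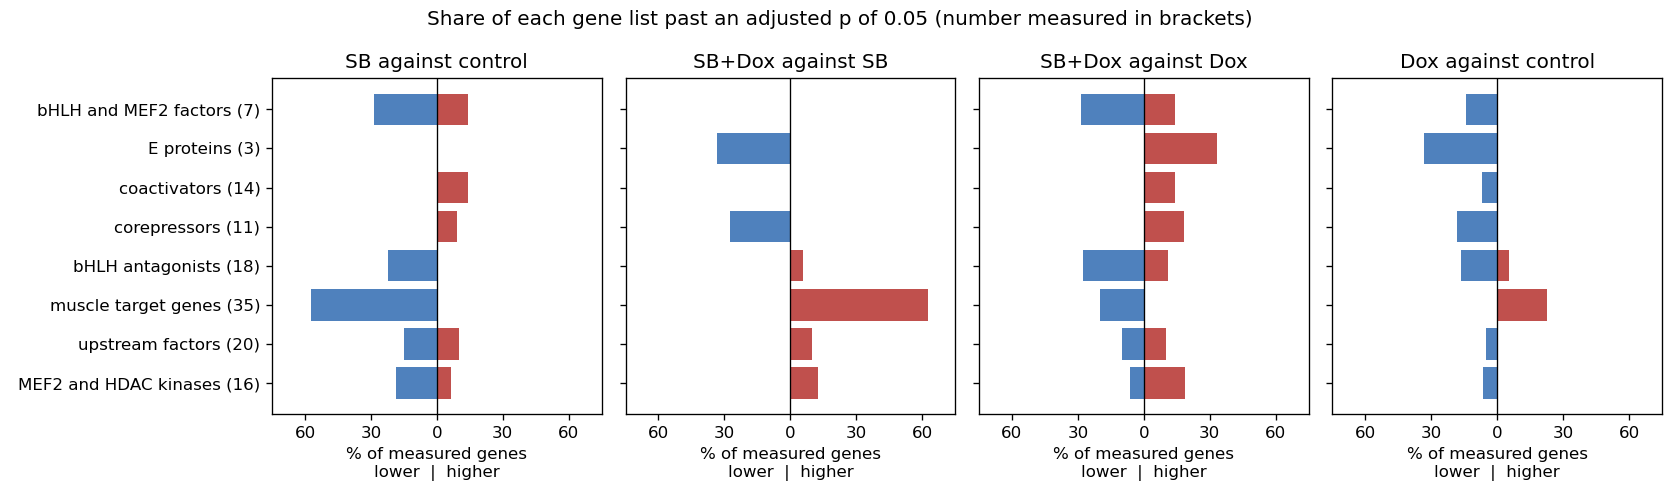
Share of the measured genes of each list (horizontal axes, percent) that passed an adjusted p of 0.05, lower to the left in blue and higher to the right in red, in 4 comparisons. The 35 muscle target genes have 20 lower in SB against control and 22 higher in SB+Dox against SB, where the 7 bHLH and MEF2 factors have 0.

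The genes whose values were nearest to a factor's over the 12 arrays were found by the root-mean-square difference after centring each gene on its own mean, for the 3 factors that passed in any comparison. For Myog, whose own root-mean-square deviation was 1.14 log2 units, the nearest were Macc1 (0.29), the retinol dehydrogenase gene Rdh5 (0.30), Mustn1 (0.31), a nuclear protein gene of muscle and skeleton, the HIF prolyl hydroxylase gene Egln3 (0.31) and the matrix protein gene Postn (0.37). For Myod1, with a deviation of 0.49, they were Ldlrad4 (0.17), a regulator of TGF-beta signalling, the sulphotransferase gene Chst2 (0.19) and Sertad4 (0.19). For Myf5, with a deviation of 0.68, they were the galectin gene Lgals9 (0.16), the tetraspanin gene Tspan15 (0.18) and the RNA helicase gene Mov10 (0.19). The 3 sets had no gene in common, and none held another of the 7 factors. Arrays of 1 group share their treatment, so the 12 values behind each likeness are not independent.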

How the data were processed

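The deposited table holds 1 value per transcript cluster for each of 12 Affymetrix whole-transcript arrays of total RNA. The values are log2 signals that the authors made with RMA in Affymetrix Expression Console, per the submitters' processing notes. The software version and the genome build are not given in the sources used here. Values ran from 0.50 to 13.17 with 0 missing. Clusters were named from the platform annotation, with symbols updated by Entrez identifier (21698 of 21789 clusters with exactly 1 symbol matched). Another 1621 with several symbols and 12147 with none were left out of the tests.

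Group means over all 12 arrays and 21789 clusters were fitted as a linear model in limma 3.58.1 under R 4.3.3 (eBayes without trend, 8 residual and 6.56 prior degrees of freedom). P-values were adjusted by Benjamini-Hochberg over all clusters in each of 6 comparisons, with a call under 0.05 and no minimum fold. Gene lists were counted on the brightest cluster per gene, with no set test. Named were all 7 factors, up to 2 called genes per list with the largest change in each of SB against control, SB+Dox against SB and SB+Dox against Dox, and the nearest genes by profile (5 for Myog, 3 for others). Pax7 and Sdc4 of the reserve cell list, and Tcf3 and Tcf12 with the E proteins, were named outside this rule, after their values were seen, and the MEF2 core was added as a motif after the sequences were seen. The factors and lists were chosen with earlier results of these data known. The fit was tested on simulated data with known changes. With 3 arrays a group, their number limits the precision.

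To see whether replicate numbers pair arrays, same-numbered arrays were correlated after group means were removed. Correlations exceeded 0.1 in all 3 pairs of SB with SB+Dox alone. Each same-numbered correlation exceeded the highest with another number for SB with SB+Dox, and also for Dox with SB+Dox (0.09, 0.28 and 0.15). The lowest was 0.09 for Dox with SB+Dox, 0.01 for control with Dox, -0.08 for control with SB, 0.05 for control with SB+Dox and -0.14 for Dox with SB. Alternatives were the replicate block, quantile normalisation, median centring, removal of dim clusters, testing every cluster, other variance moderation, array weights, fits of 2 groups, averaged clusters and leaving out each array.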

Additional observations from a re-analysis of the deposited data

Results flagged for a closer look

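Groups of 3 arrays are too small for a check on outlying samples, so only differences between doxycycline changes were screened. The 7 factors gave no such difference past the test. Of the 165 genes of the related lists, 5 had a doxycycline change that differed between cells with and without SB203580, where 0.895% of all clusters did. The test was the limma interaction, adjusted over all clusters, as the change with the inhibitor minus that without. For the light chain gene Myl4 the difference was 1.48 (adjusted p = 0.024), from 0.97 without the inhibitor to 2.45 with it. For the troponin gene Tnnc1 it was 1.66 (adjusted p = 0.0194), from 0.44 to 2.11, and for Casq2 1.35 (adjusted p = 0.0435), from 1.08 to 2.44. For the calcium-calmodulin kinase gene Camk2d it was 0.68 (adjusted p = 0.05, just under the threshold), from -0.24 to 0.43. For the collagen gene Col1a1 it was 1.78 (adjusted p = 0.0434), from -2.21 to -0.43. All 5 were positive, as were 158 of the 195 clusters called in this comparison.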

How the results depend on the processing

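The calls of Myog in SB against control, of Myog, Myod1 and Myf5 in SB+Dox against Dox, of Myog and Myod1 in SB+Dox against control and of Myf5 in Dox against control held under all 23 alternatives run for each. In SB against control the number of the 7 factors called was 1 with every cluster tested and 5 with array weights, and 1 to 3 when 1 array was left out. In SB+Dox against SB it was 1 with the replicate block, quantile normalisation, the 25th or 50th percentile of dim clusters removed or an eBayes trend, 2 with array weights, 3 with the block over the SB and SB+Dox arrays, chosen after seeing the data, and 0 to 1 without 1 array. In the interaction it was 1 with the replicate block, median centring or array weights. The replicate block changed no other call of a factor. Genes of the related lists called (165, factors excluded) numbered 46 in SB against control and 28 with every cluster tested, where also Dox against control gave 16 for 28, SB+Dox against control 17 for 28 and the interaction 0 for 5. SB+Dox against control gave 43 with array weights. The main fit called 27.9% of the 165 in SB against control, 17.0% in Dox against control, 17.0% in SB+Dox against control and 3.03% in the interaction. Of all clusters it called 6.38%, 5.31%, 5.26% and 0.895%. The interaction gave 12 with the replicate block, 2 with quantile normalisation, 8 without clusters under the 50th percentile, 18 with array weights. Without 1 array these counts ran from 31 to 50 in SB against control, 29 to 47 in SB+Dox against SB, 27 to 42 in SB+Dox against Dox, 16 to 33 in Dox against control, 19 to 31 in SB+Dox against control and 0 to 13 in the interaction. The recovered share ran from 13.7% to 36.1% for Myog and from 35.5% to 77.5% for Myf5 (56.8% with all arrays).

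Signs turned only in uncalled changes near 0. Mef2a in Dox against control was -0.010 with quantile normalisation, -0.0082 with median centring and -0.085 with array weights, and -0.087 to 0.10 without 1 array. Array weights turned Mef2d in SB+Dox against control (-0.0028), and the interaction of Myog (-0.031) and of Mef2a (0.059). Quantile normalisation turned the interaction of Mef2d (-0.025) and median centring turned Myf6 in SB against control (-0.0085). Without 1 array, the ranges were -0.024 to 0.14 for Myf6 in SB against control, -0.045 to 0.21 for Myod1 in Dox against control, -0.13 to 0.22 for Mef2d in SB+Dox against control, -0.22 to 0.016 for Mef2a in SB+Dox against SB, and for the interaction -0.21 to 0.43 for Myog, -0.22 to 0.013 for Mef2a, -0.066 to 0.11 for Mef2c and -0.11 to 0.24 for Mef2d. Of 59 calls named in the related lists 44 held under all alternatives, 15 were lost at least once and 0 turned. Over all clusters the interaction had 195 calls, and 6 with every cluster tested, 84 with quantile normalisation, 301 without clusters under the 50th percentile, 421 with the replicate block and 678 with array weights. SB against control had 1390 calls, 876 with every cluster tested and 2794 with array weights. Without 1 array, the interaction had 27 calls (SB replicate 2 left out) to 352 (SB replicate 3 left out), SB against control 779 to 1644 (the same arrays), SB+Dox against SB 724 (SB+Dox replicate 3) to 2521 (SB replicate 3) around 1550, Dox against control 744 (Dox replicate 3) to 1305 (SB replicate 3) around 1156, and SB+Dox against control 644 (SB+Dox replicate 2) to 1351 (SB replicate 3) around 1146, so the background shares move with single arrays. Array weights gave 3076, 1831 and 1935 calls in these last 3, and every cluster 696 in SB+Dox against control. The causes were not tested. Myf6 has no value without clusters under the 50th percentile, since it is one of them, and low signal limits what can be said of it.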
